A study of Mus musculus with 4 samples.

Results

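The 10 genes described here encode transcription factors of the mesenchyme: Twist1, Twist2, Tcf4, Snai1, Snai2, Zeb1, Zeb2, Prrx1, Foxf1 and Foxc2. Their accessible sites were taken by position alone, as every site that overlapped the body of 1 of these genes or lay within 50 kb of its annotated start, and no measured value was used to choose them. The rule gave 114 sites of the 82325 in the table (0.138%). Foxf1 and Foxc2 are neighbours on chromosome 8 and shared 11 of the sites, so the 10 genes had 125 gene-site links. ATAC-Seq reads accessibility from the places where Tn5, a transposase, can insert adapters. The cells were mouse embryonic fibroblasts (MEFs) of C57bl6 background, taken from embryos at mid-gestation and made to divide indefinitely with a plasmid that carries the SV40 T antigen. HAT1+/+ lines (WT, 2 libraries) were compared with HAT1-/- lines (KO, 2 libraries), which lack the histone acetyltransferase HAT1; no treatment is given for either. Each library came from its own immortalized line, so a difference between lines that has nothing to do with HAT1 and a difference between genotypes can be told apart only through 2 lines on each side. The names of the lines of WT replicate 1 and KO replicate 2 share a number whose meaning the labels do not give.

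Twist1, Twist2 and Tcf4 are basic helix-loop-helix (bHLH) proteins, which bind E-boxes as dimers. Snai1 and Snai2 (Snail and Slug) and Zeb1 and Zeb2 are zinc finger repressors of E-cadherin and other epithelial genes and are best known for the epithelial-mesenchymal transition. Prrx1 is a homeodomain factor of limb and craniofacial mesenchyme, Foxf1 a forkhead factor of the mesenchyme around the gut and lung, and Foxc2 a forkhead factor of paraxial mesoderm and vessels. Fibroblasts are mesenchymal cells and many of these genes are active in them. HAT1 acetylates newly made histone H4, and the comparison asks whether accessibility at these genes differed between cells with and without it.

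The values are read counts that the authors divided by a factor for each library and rounded, and they are called normalized counts below. They summed to between 8008069 and 8516263 per library, behind which stood about 5650000 to 11400000 reads in sites, fewest in KO replicate 2 and most in WT replicate 2. The promoter site of Hat1 itself was open in all libraries, with 390 and 384 normalized counts in WT and 438 and 368 in KO, and so did not serve as a check of the genotype labels. Of the fibroblast markers, 9 of 10 had a promoter site, with a median of 243 normalized counts. Promoter sites were also listed for 4 of 6 epithelial, 5 of 6 endothelial, 3 of 6 blood, 5 of 6 neural and 2 of 6 muscle markers, with medians from 47.6 to 92. Of the blood markers Ptprc, Spi1 and Gata1 had no promoter site, and Cd68 had a mean of 180 normalized counts, Lcp1 92 and Csf1r 71. Among fibroblast markers Lum had no promoter site and Dcn only 9 to 30 normalized counts. Summed over the fibroblast list the libraries held 2685 and 3011 in WT and 3084 and 3173 in KO. The sums over the epithelial list were 247 and 191 in WT and 245 and 154 in KO, and the part of such differences in the results below was not tested.

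All 10 genes had at least 3 sites. Of the 114 sites, 34 lay within 3 kb of an annotated start of the gene (promoter sites here), 38 in introns, 2 in exons and 40 outside the gene. Shared sites were classed by Foxf1 in these counts, so the 2 promoter sites of Foxc2 counted as outside the gene. Tcf4 had 13 of the 34 promoter sites and Zeb2 5, many of them at internal starts. Tcf4 had the most, 30 sites over a gene of 346 kb, which put it at percentile 99.6 of protein-coding genes, for which the median was 6. Per length searched, Prrx1 was the densest with 14.33 sites per 100 kb (percentile 97.2, median of all genes 5.00). Foxc2 (percentile 95.9), Snai1 (93.9) and Foxf1 (91.2) followed. Snai2 (3 sites) and Twist1 (4 sites) had fewer sites than most genes, at percentiles 24.8 and 31.2. The sites were of ordinary length and strength, with a median of 422 bp against 440 bp over all sites and a median of 60.4 normalized counts against 52.0.

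No site of these genes passed the test for a difference between the genotypes. Calls needed a p under 0.01, unadjusted, together with a log2 fold change of 1 or more in size, by limma on log2(value + 1) fitted over all sites. None of the 114 member sites was called, against 0.373% of all sites (307, of which 249 were lower in KO). At an unadjusted p under 0.05 there were 2 member sites (1.75%, against 3.13% of all sites), and every adjusted p of the members was 1. No site of the whole table reached an adjusted p under 0.05. A log2 fold change of 1 or more in size was seen at 5 member sites (4.39%, against 6.42%). Accessibility was lower in KO at 52 sites and higher at 62, with a median log2 fold change of 0.05. Over all sites the median was 0.01 and 49.3% were lower in KO. With equal library totals the split of the member sites was 61 lower and 53 higher, and with quantile normalization 47 and 67.

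In the 4 values themselves, both KO libraries lay below both WT libraries at 9 member sites (7.89%), against 14.3% of all sites. Both lay above at 19 member sites (16.7%), against 14.6%. Scaling the libraries to equal totals changed this split from 9 and 19 to 13 and 13. The shares of all sites were not counted under that scaling, where the median log2 fold change over all sites was -0.061. The median log2 fold change was 0.18 over the 38 intronic sites and -0.02 over the 34 promoter sites, which were not tested against each other. Tcf4 alone gave 16 of these intronic and 13 of these promoter sites. Single lines of the same genotype lay farther apart than the genotype means, which average 2 lines and so vary less. The median absolute log2 difference was 0.35 between the WT lines, 0.47 between the KO lines and 0.23 between the genotype means. Over all sites of the table these medians were 0.34, 0.43 and 0.25. The genotype difference exceeded both within-genotype differences at 19 of the 114 sites, and the share of all sites that did so was not counted.

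**Figure D1:**
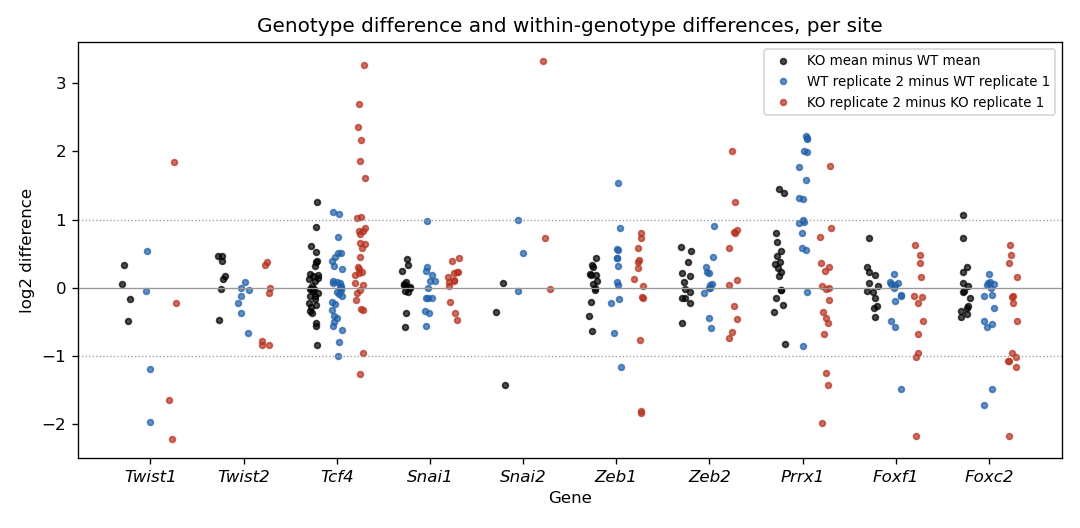
Log2 differences of normalized counts + 1 at each site of the 10 genes (vertical axis), with black points for the KO mean minus the WT mean, blue for WT replicate 2 minus replicate 1 and red for KO replicate 2 minus replicate 1; dotted lines mark a difference of 1 in either direction. Sites linked to Foxf1 and Foxc2 are drawn under both, and at Prrx1 the blue points reach 2.22 while at Tcf4 and Foxc2 the red points spread more widely than the black ones.

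Summed over its sites, no gene passed the test either. The sums were tested with limma in the same way over 18825 protein-coding genes, of which 4.14% had an unadjusted p under 0.05, and 0 of the 10 members did. The lowest p among the members was 0.205 (Snai1) and the adjusted p-values ran from 0.901 to 0.989, and no gene of the genome passed an adjusted p under 0.05. Of the 10 sums 8 were higher in KO (5 with equal library totals and 6 with quantile normalization), with a median log2 fold change of 0.07, against 0.06 over all genes. Over all genes only 36.3% of the sums were lower in KO, without further scaling. Both KO sums lay above both WT sums for Snai1 alone, which is 1 of 10, against 24.8% of all genes. Both lay below for 0 of 10, against 10.6%. Fold ranges between the highest and lowest library were 1.05 for Snai2 and 1.11 for Snai1, the steadiest of the 10, and 1.94 for Prrx1, the least steady (percentile 90.7 of all genes), with 1.25 as the median of all genes.

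**Figure D2:**
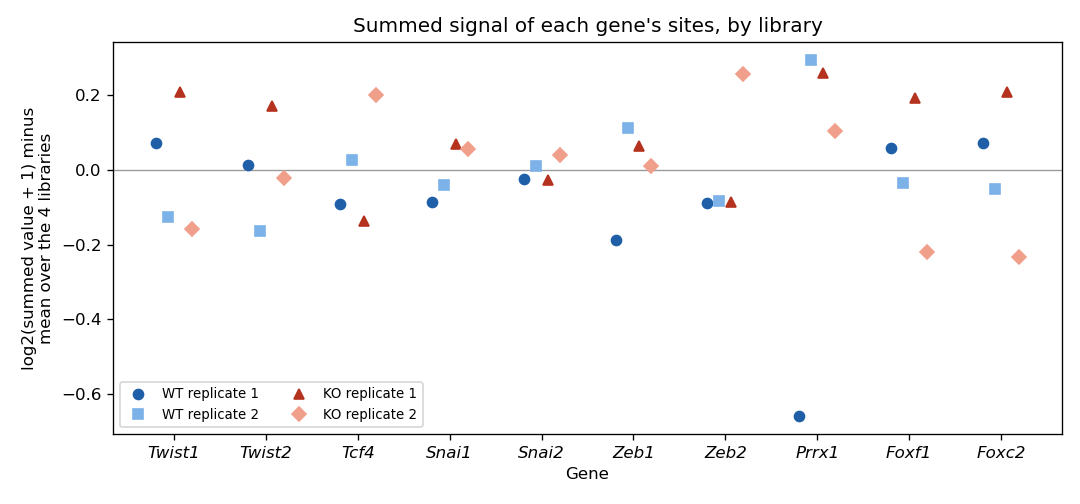
Summed normalized counts over the sites of each gene in the 4 libraries, on the log2 scale relative to the mean of the 4 libraries (vertical axis), with blue symbols for WT and red symbols for KO. WT replicate 1 of Prrx1 stands farthest from the others, and the KO symbols separate from the WT symbols at Snai1 alone.

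The promoter sites of the 10 genes spanned a wide range of accessibility. For each gene the promoter site with the highest mean normalized count of the 4 libraries was taken. Its mean was then divided by the length of the site. Snai1 stood highest with 552.5 per kb, at percentile 94.4 of the promoter sites of protein-coding genes. Tcf4 followed with 412, Foxc2 with 321, Snai2 with 296 and Twist2 with 256 per kb. Twist1 (183), Foxf1 (181), Zeb2 (166) and Prrx1 (159) came next and Zeb1 was lowest with 132 per kb (percentile 19.0). The ranked Zeb2 site lay 97.2 kb downstream of the gene start, at an internal start near Mir5129. Zeb1 had 4 promoter sites, of which only the strongest by count was ranked. Promoter sites with lower counts but more per kb than the ranked site were found at 3 genes. The densest were those of Zeb2 at 6.8 kb (201.7), Prrx1 at 1.4 kb (183.3) and Zeb1 at 1.1 kb (142.2). The lower part of the order thus depended on the choice by count. Without division by length the order changed. By mean count Foxc2 was highest at percentile 91.6, Twist2 stood at 83.3, Twist1 at 74.5, Snai1 at 69.5 and Zeb1, again lowest, at 17.1. Between neighbours in the order per kb the values of the 4 libraries overlapped in 7 of 9 pairs, and separated only between Snai2 (286 to 305) and Twist2 (238 to 278) and between Twist2 and Twist1 (172 to 201).

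**Figure D3:**
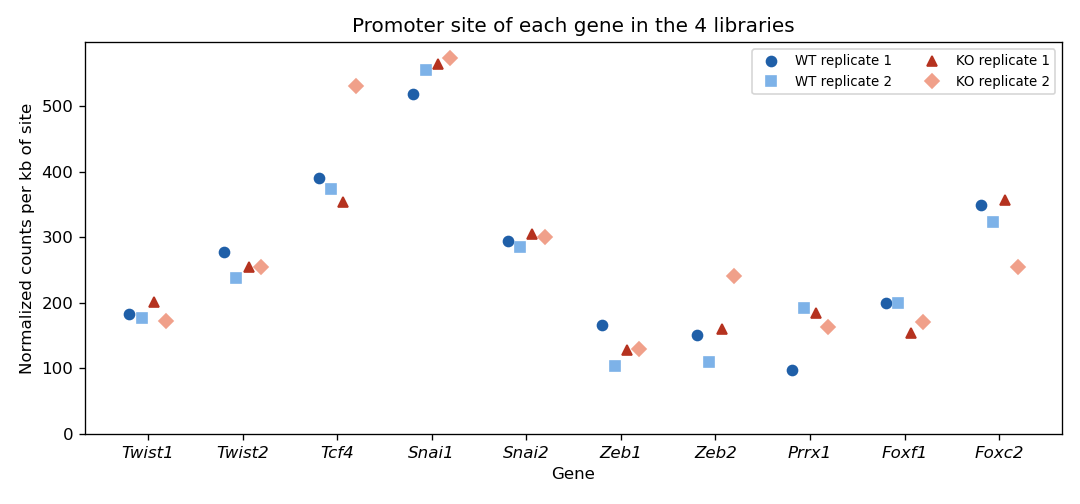
Normalized counts per kb (vertical axis, from 0) of the promoter site with the highest mean count of each gene, in the 2 WT (blue) and 2 KO (red) libraries. For Zeb2 this site lay 97.2 kb downstream of the gene start. Snai1 sits highest, between 518 and 573 in all 4 libraries, and the WT and KO symbols interleave at most genes.

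Among the bHLH genes, Twist1 (chr12:33957671-33959829, mm10, plus strand) sets mesoderm and cranial mesenchyme fates and had a single promoter site, which lay over its start. It held 360 and 348 normalized counts in WT and 396 and 338 in KO, so the KO values lay on either side of the WT values (log2 fold change 0.05, SE 0.15). The 250 bases before the Twist1 start and those before the Snai1 start, both plus strand and from RefSeq on GRCm38.p6, are shown as 2 open promoters of the set. Capitals mark an E-box, CANNTG on either strand. The Twist1 stretch at chr12:33957421-33957670 held none of the 8 motifs searched, and the Snai1 stretch at chr2:167537945-167538194 held 1 E-box, in the form CACCTG, which is the Snail and Zeb box CAGGTG read on the other strand.
Twist1 promoter: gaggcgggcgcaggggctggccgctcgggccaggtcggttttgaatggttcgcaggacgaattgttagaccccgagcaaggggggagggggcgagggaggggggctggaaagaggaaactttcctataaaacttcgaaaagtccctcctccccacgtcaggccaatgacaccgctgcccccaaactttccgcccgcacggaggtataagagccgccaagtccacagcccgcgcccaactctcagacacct
Snai1 promoter: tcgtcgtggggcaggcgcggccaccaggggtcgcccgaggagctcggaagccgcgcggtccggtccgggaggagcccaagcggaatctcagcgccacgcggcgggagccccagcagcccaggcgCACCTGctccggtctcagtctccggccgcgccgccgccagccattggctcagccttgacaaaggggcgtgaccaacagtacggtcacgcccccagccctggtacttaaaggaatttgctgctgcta
Of all RefSeq promoters of that length 66.2% held an E-box and 17.2% a Snail and Zeb box.

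Downstream of Twist1, 2 weak sites at 8.9 and 9.8 kb did not split by genotype. The site at 8.9 kb had 31 and 13 normalized counts in WT and 46 and 14 in KO. The site at 9.8 kb had 42 and 10 in WT and 41 and 8 in KO, so at both sites WT replicate 2 and KO replicate 2 were low and the other two libraries high. Summed over its 4 sites Twist1 held 443 and 386 in WT and 487 and 377 in KO (log2 fold change 0.05, 95% interval -0.41 to 0.51).

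Twist2 (chr1:91801461-91848028, plus strand), a relative of Twist1 active in dermis and connective tissue, had its strongest site in an intron. This site at 14.7 kb (chr1:91816199-91817150) held 551 and 550 normalized counts in WT and 639 and 606 in KO, and had the highest mean of all 114 sites. Both KO values lay above both WT values, with a log2 fold change of 0.18 (SE 0.10) that became -0.002 with quantile normalization, and the site was not called. The promoter site of Twist2 held 463 and 397 in WT and 424 and 424 in KO, with the KO values between the WT values. The central 300 bases of the intronic site, chr1:91816525-91816824 on the plus strand of GRCm38, are shown because it was the most accessible site of the set. Capitals mark 2 E-boxes, the second of them the Twist box CAGATG, and 1 AP-1 motif TGANTCA.
Twist2 site at 14.7 kb: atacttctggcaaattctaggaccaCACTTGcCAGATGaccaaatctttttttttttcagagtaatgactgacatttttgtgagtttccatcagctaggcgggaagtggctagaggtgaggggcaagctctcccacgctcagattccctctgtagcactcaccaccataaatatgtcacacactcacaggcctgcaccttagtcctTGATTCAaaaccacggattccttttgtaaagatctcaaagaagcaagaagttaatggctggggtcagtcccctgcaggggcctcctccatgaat
The sum over the 7 Twist2 sites was 1399 and 1238 in WT and 1562 and 1368 in KO (log2 fold change 0.15, SE 0.12, adjusted p = 0.901 by limma).

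Tcf4 (chr18:69343356-69689079, plus strand) encodes an E protein, the class of bHLH factor with which Twist proteins can pair. The promoter site at the start of the gene held 229 and 219 normalized counts in WT and 208 and 311 in KO, with KO replicate 2 above and KO replicate 1 below both WT values. The strongest site of the gene, in an intron at 204.0 kb, held 263 and 345 in WT and 340 and 323 in KO. The KO lines differed from each other along the gene: KO replicate 1 was the lowest library at 16 of the 30 sites and KO replicate 2 the highest at 17. At 177.9 kb, beside an internal start, the values were 125 and 172 in WT and 53 and 195 in KO (log2 fold change -0.52, SE 0.59). At 72.1 kb the order was the other way, with 106 and 129 in WT and 236 and 98 in KO. Over the 15 sites from 249.1 to 343.5 kb, a stretch chosen after its values were seen, the sums were 867 and 874 in WT and 689 and 1035 in KO. The WT lines differed by 7 normalized counts there and the KO lines stood on either side of them.

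Falls that ranked among the 5 largest of sites at or above the all-site median were found at 3 Tcf4 sites. Besides the site at 177.9 kb these were the site at 4.5 kb, with 113 and 113 in WT and 82 and 96 in KO (log2 fold change -0.35, SE 0.27), and the site at 323.0 kb, with 97 and 71 in WT and 51 and 80 in KO (-0.37, SE 0.36). Of these 3 sites the KO values lay below both WT values only at 4.5 kb. Summed over all 30 sites, Tcf4 held 2095 and 2277 in WT and 2032 and 2566 in KO, a log2 fold change of 0.06 (SE 0.13, adjusted p = 0.950 by limma).

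Snai1 (chr2:167538195-167542814, plus strand), the founding Snail factor of gastrulation, had the most open promoter of the 10 per kb. Its promoter site held 308 and 330 normalized counts in WT and 336 and 341 in KO (log2 fold change 0.09, SE 0.14). The strongest of its 13 sites lay 31.5 kb downstream of the start at chr2:167569724-167570697, inside the annotated gene Gm11476, and was 1 of the 2 member sites with an unadjusted p under 0.05. It held 414 and 510 normalized counts in WT and 558 and 605 in KO. Both KO values were above both WT values, with a log2 fold change of 0.34 (SE 0.14), an unadjusted limma p of 0.0467 and an adjusted p of 1. The log2 fold change was 0.19 without WT replicate 1 and 0.17 with quantile normalization. The central 300 bases of the site, chr2:167570061-167570360 on the plus strand of GRCm38, held 4 E-boxes, in capitals, and 2 of them read CATCTG, the Twist box CAGATG on the other strand.
Snai1 site at 31.5 kb: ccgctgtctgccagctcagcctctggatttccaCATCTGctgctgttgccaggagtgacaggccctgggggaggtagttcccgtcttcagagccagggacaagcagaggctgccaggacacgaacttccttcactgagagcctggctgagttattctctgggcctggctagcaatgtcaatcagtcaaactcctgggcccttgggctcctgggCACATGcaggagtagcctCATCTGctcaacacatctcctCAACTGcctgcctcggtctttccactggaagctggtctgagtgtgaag
At 36.6 kb the values were 247 and 293 in WT and 295 and 346 in KO, and at 14.5 kb 231 and 207 in WT and 345 and 248 in KO, again with both KO values above. At 47.9 kb they went the other way, with 79 and 79 in WT and 49 and 57 in KO, the largest fall among sites of the set at or above the all-site median (log2 fold change -0.57, SE 0.31). The sum over the 13 sites was 2517 and 2598 in WT and 2802 and 2777 in KO (log2 fold change 0.13, SE 0.09, 95% interval -0.09 to 0.34, and -0.016 with quantile normalization). Of the 13 sites, those at -44.8 and -33.9 kb lay within 3 kb of the starts of the neighbouring genes Rnf114 or Spata2.

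Snai2 (chr16:14705852-14709385, plus strand), the Slug gene of neural crest and mesenchyme, had the least variable accessibility of the 10. The promoter site held 372 and 361 normalized counts in WT and 386 and 380 in KO, with both KO values above both WT values by a log2 fold change of 0.06 (SE 0.13), which became -0.005 with equal library totals and -0.058 with quantile normalization. Over the promoter sites of protein-coding genes both KO values lay above in 21.7% and below in 14.4%, and among the strongest promoter sites of the 10 genes they lay above for Snai1, Snai2 and Zeb2 and below for Foxf1. The second Snai2 site, 1.7 kb before the start, held 35 and 50 in WT and 25 and 42 in KO. The third, at 30.4 kb, was the weakest site of the set with 5 and 11 in WT and 0 and 9 in KO. Its log2 fold change of -1.42 rested on these few counts, and the sum over the 3 sites was 412 and 422 in WT and 411 and 431 in KO.

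Zeb1 (chr18:5591860-5775467, plus strand) held 91 and 57 normalized counts in WT and 70 and 71 in KO at its strongest promoter site, the lowest of the 10 per kb, with both KO values between the WT values. Its strongest site lay in an intron at 148.0 kb, with 211 and 309 in WT and 287 and 260 in KO, and there too the KO values lay between. Summed over 13 sites Zeb1 held 641 and 789 in WT and 764 and 736 in KO (log2 fold change 0.08, SE 0.14, adjusted p = 0.942 by limma).

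Zeb2 (chr2:44983632-45117395, minus strand) had little signal at the 5′ end of the gene, where a site 0.6 kb downstream held 22 and 26 in WT and 32 and 20 in KO. The promoter site chosen by strength lay 97.2 kb downstream at an internal transcript start, within 3 kb of the start of the microRNA gene Mir5129. It held 150 and 110 normalized counts in WT and 160 and 239 in KO, with both KO values above both WT values (log2 fold change 0.60, SE 0.30). With 1 library left out the value ran from 0.32 (without KO replicate 2) to 0.89 (without KO replicate 1). KO replicate 2 stood well above the other three libraries and KO replicate 1 close to WT replicate 1. The next strongest site, at 6.8 kb beside the start of the antisense gene Zeb2os, was lower in both KO libraries, with 142 and 146 in WT and 128 and 131 in KO (log2 fold change -0.15, SE 0.23). Reads do not show the strand here, so the promoters of Zeb2 and Zeb2os at this place cannot be told apart. The sum over 12 sites was 558 and 560 in WT and 559 and 709 in KO (log2 fold change 0.17, SE 0.16, adjusted p = 0.901 by limma), and KO replicate 2 decided the value, which was 0.00 without it and 0.34 without KO replicate 1.

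Prrx1 (chr1:163245119-163313710, minus strand) differed most between libraries, and WT replicate 1 was the library that stood apart. Its 17 sites summed to 732 normalized counts in WT replicate 1 and 1419 in WT replicate 2, against 1386 and 1244 in KO. WT replicate 1 was the lowest library at 13 of the 17 sites. The log2 fold change of the sum was 0.37 (SE 0.29, 95% interval -0.35 to 1.08, adjusted p = 0.901 by limma). Without WT replicate 1 it was -0.11 and without WT replicate 2 0.84, so the direction rested on which WT line was used. The promoter site held 68 and 134 in WT and 129 and 114 in KO. An intronic site at 13.7 kb held 14 and 69 in WT and 80 and 95 in KO, and another at 7.0 kb held 14 and 68 in WT and 84 and 83 in KO. These were the largest rises among sites at or above the all-site median (log2 fold change 1.44, SE 0.71, and 1.39, SE 0.70), and neither was called. Without WT replicate 2 both passed the thresholds for a call, with log2 fold changes of 2.56 and 2.49, and without WT replicate 1 they fell to 0.33 and 0.29. Upstream at -42.5 kb the values were 18 and 85 in WT and 108 and 45 in KO, and at -47.6 kb 63 and 254 in WT and 211 and 147 in KO.

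The intronic site of Prrx1 at 27.6 kb (chr1:163285198-163286109) was an exception to this order. It held 172 and 164 normalized counts in WT and 244 and 244 in KO, so the lines of each genotype were close and the genotypes separate. Its log2 fold change was 0.54 (SE 0.19) and its limma p of 0.0273 was the lowest of the 114 sites, with an adjusted p of 1. It was the strongest site of Prrx1. The central 300 bases of this site (chr1:163285504-163285803) and of the site at 13.7 kb (chr1:163299599-163299898) are shown as the site with the lowest p and the site with the largest rise, both on the plus strand of GRCm38, which is the opposite strand to the gene. Capitals mark 2 TEAD motifs (GGAATG on either strand) in the first and 1 E-box in the second.
Prrx1 site at 27.6 kb: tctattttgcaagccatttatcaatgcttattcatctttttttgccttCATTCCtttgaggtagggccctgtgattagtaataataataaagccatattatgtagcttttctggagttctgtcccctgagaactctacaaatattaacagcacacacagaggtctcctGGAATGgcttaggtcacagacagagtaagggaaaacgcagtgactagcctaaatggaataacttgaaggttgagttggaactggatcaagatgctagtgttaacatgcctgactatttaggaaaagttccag
Prrx1 site at 13.7 kb: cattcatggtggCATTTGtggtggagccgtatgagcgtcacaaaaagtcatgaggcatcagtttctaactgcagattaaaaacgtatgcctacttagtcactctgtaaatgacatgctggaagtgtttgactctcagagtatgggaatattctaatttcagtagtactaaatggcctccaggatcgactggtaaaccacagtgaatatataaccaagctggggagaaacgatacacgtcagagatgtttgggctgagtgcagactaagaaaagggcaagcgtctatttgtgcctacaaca
In windows of this length TEAD motifs were found at 21.9% of member sites and 24.7% of all sites, and an E-box at 78.1% and 77.8%.

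**Figure D4:**
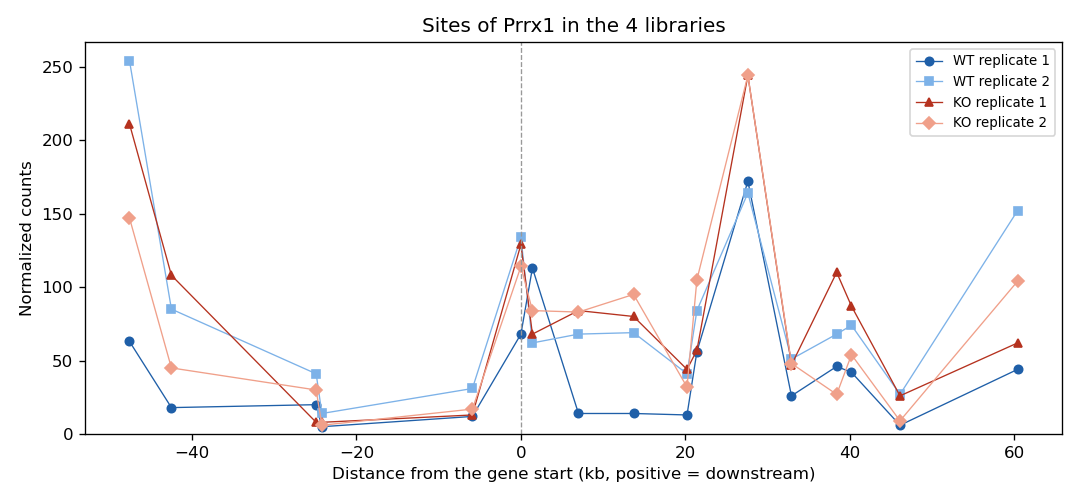
Normalized counts (vertical axis) of the 17 Prrx1 sites against their distance from the gene start in kb (horizontal axis, positive downstream), with 1 line per library. WT replicate 1 runs lowest at 13 of the 17 sites, and at 27.6 kb the KO libraries (244 and 244) lie together above the WT libraries (172 and 164).

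The forkhead genes Foxf1 (chr8:121084386-121088144) and Foxc2 (chr8:121116171-121118895), both on the plus strand, are described together because of their shared sites. At the start of Foxf1 both promoter sites had lower values in KO, and neither passed the test. Its promoter site, within 3 kb of the start of the noncoding gene Fendrr as well, held 105 and 105 normalized counts in WT and 81 and 90 in KO (log2 fold change -0.30, SE 0.27). The site over the start held 84 and 86 in WT and 53 and 74 in KO (-0.43, SE 0.32). At both sites the KO values lay below both WT values. At 15.3 kb, near a start of Mthfsd, the values were 83 and 29 in WT and 66 and 102 in KO, with WT replicate 2 low. The 12 sites of Foxf1 summed to 2055 and 1926 in WT and 2256 and 1694 in KO (log2 fold change -0.03, SE 0.15, adjusted p = 0.983 by limma).

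Foxc2 had the strongest site at its own start, with 576 and 534 normalized counts in WT and 589 and 420 in KO (log2 fold change -0.16, SE 0.17). Upstream at -7.6 kb, beside a start of Mthfsd, the values were 340 and 311 in WT and 291 and 376 in KO. Downstream, from 8.7 to 23.6 kb, KO replicate 2 was the lowest library at 4 of 4 sites, and the sums over this stretch, chosen after its values were seen, were 604 and 648 in WT and 881 and 365 in KO. The first of these sites is the promoter site of Foxl1, the next forkhead gene, with 313 and 360 in WT and 390 and 200 in KO. The KO lines thus lay on either side of the WT lines, as at the end of Tcf4 but with their order turned. Summed over 14 sites Foxc2 held 2110 and 1938 in WT and 2318 and 1708 in KO (log2 fold change -0.02, SE 0.16, adjusted p = 0.985 by limma).

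The study describes domains of reduced accessibility by the mean log2 fold change of 25 consecutive sites, with a limit of -0.58. It defined them in primary MEFs and joined nearby regions below the limit. It also repeated the ATAC-Seq in immortalized MEFs and reported very similar patterns of domains there. The windows here used the limma fold changes of the immortalized lines, without joining, and the study's own list of domains was not compared. None of the member sites lay at the centre of a window below -0.58. The window means at member sites ran from -0.14 near Foxc2 to 0.41 near Twist1. Over all sites of chromosome 12, which carries Twist1, the median log2 fold change was 0.09, and WT replicate 1 lay a median of -0.14 (log2) from the mean of the 4 libraries. On the other 5 chromosomes that carry member genes the median log2 fold change lay between -0.03 and 0.04.

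Each motif was searched on both strands in the central 300 bases, and the Snail and Zeb box and both Twist boxes are kinds of E-box. The Snail and Zeb box CAGGTG was present at 16.7% of member sites and 15% of all sites, the Twist box CATATG at 8.8% and 5.6%, and the Twist box CAGATG at 25.4% and 23.5%. The AP-1 motif TGANTCA was present at 36.0% and 37.7%. At promoter sites it was found in 11 of 34 member sites (32.4%), against 18.4% of all promoter sites, and at the other sites in 37.5% against 45.4%. The forkhead motif TGTTTAC (3.5% and 3.8%) and the homeodomain motif TAATTA (4.4% and 4.7%) were rare at both. The forkhead motif was found in 3 of 34 member promoter sites (8.8%, against 2.7% of all promoter sites) and in 1 of the 80 others (1.2%, against 4.2%). Member promoter sites had a median GC content of 54.8%, against 59.0% over all promoter sites. Of the 34 member promoter sites 13 belonged to Tcf4 and 5 to Zeb2, many of them at internal starts, so both genes weigh heavily in these promoter values. These shares are descriptions, with no test.

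Partners, relatives and known targets of these factors were read at their strongest promoter site, and none of the 42 sites found for 48 genes was called. Both KO values lay below both WT values at 4 of them and above at 11, against 14.4% and 21.7% of the promoter sites of all protein-coding genes, and 27 of 42 were higher in KO (24 with equal library totals, 23 with quantile normalization), with a median log2 fold change of 0.10, against 0.03 over those promoter sites. The dimer partners and co-repressors (Tcf3, Tcf12, the Id genes, Ctbp1 and Ctbp2) all had a promoter site, 1 lower and 7 higher in KO (3 and 5 with quantile normalization). Tcf3, an E protein that pairs with Twist factors, held 482 and 432 in WT and 477 and 596 in KO. Of the paralogs and neighbours 9 of 10 had a site, 4 lower and 5 higher, a split that turned to 5 and 4 with equal library totals and to 6 and 3 with quantile normalization. Hand2, a bHLH factor of limb and heart mesenchyme, held 48 and 31 in WT and 145 and 24 in KO (log2 fold change 0.61, SE 0.81), with KO replicate 1 alone high.

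Among 16 epithelial genes that Snail and Zeb factors can repress, 11 had a promoter site, with a low median of 45.0 normalized counts, 8 lower and 3 higher in KO. Of the promoter sites of all protein-coding genes 44.0% were lower in KO. Cdh1, which encodes E-cadherin, held 52 and 41 in WT and 34 and 29 in KO (log2 fold change -0.54, SE 0.37). Pkp3, which encodes a desmosomal plakophilin, went the other way with 39 and 37 in WT and 83 and 57 in KO (log2 fold change 0.84, SE 0.36). The KO values lay below both WT values at 3 of the 11 and above at 1, beside the same 14.4% and 21.7% of all such promoter sites. Among 14 mesenchymal genes all had a promoter site, with a median of 274 normalized counts, 2 lower and 12 higher in KO, below both WT values at 1 and above at 7, where 14.4% and 21.7% of all such promoter sites did. With quantile normalization the split was 7 lower and 4 higher for the epithelial and 3 and 11 for the mesenchymal genes. Stronger sites leaned higher in KO in general, with a median log2 fold change of 0.06 at or above the all-site median and 0.01 over all sites. The part of strength in the splits of these weak and strong promoters was not tested. Vim, which encodes the intermediate filament vimentin, was the only gene of these lists with an unadjusted p under 0.05. It held 759 and 810 in WT and 977 and 919 in KO with a log2 fold change of 0.27 (SE 0.08), an unadjusted limma p of 0.0126 and an adjusted p of 1.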

How the data were processed

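Immortalized MEFs were profiled by ATAC-Seq in 4 libraries, 2 WT and 2 KO, numbered in accession order. Per the labels, the authors used BWA 0.7.12, MACS2 2.1.0 and DESeq2 on mm10. The deposited values are a score, namely normalized counts: read counts per merged site that the authors divided by a factor per library and rounded to whole numbers. Read filters and any shift for the Tn5 offset are not given in the sources used here. The deposited fold changes, p-values and adjusted p-values of the authors' comparison were not used. All 82325 sites lay within the chromosomes of GRCm38, the build of mm10, and genes were those of GENCODE.

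A site belonged to a gene if it overlapped the gene or lay within 50 kb of its start. Scaled values do not suit a count test, so limma 3.58.1 with an intensity trend (R 4.3.3) was fitted on log2(value + 1) over all 82325 sites, and over site sums of 18825 protein-coding genes. Fold changes on that scale understate the change of low sites. P-values are two-sided and Benjamini-Hochberg adjusted over each whole table. They rest on the spread between 2 lines a genotype, which limma draws toward a trend fitted over all sites or all gene sums. No relabelling of 2 against 2 libraries can give a p under 0.333. The factors, and from them the reads in sites, were estimated from the whole-number steps of the low values, so that depth is approximate and intervals come from the fit alone.

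The members, lists and motifs were chosen with earlier results of these data known. Named were each gene's strongest promoter site and strongest other site, the 5 largest falls and rises among sites at or above the all-site median, and 2 promoters of the lists with the largest change among those at or above that median. Other sites named, and further genes of the lists, were chosen after their values were seen. Simulated data used the same spread for every site, set at the median spread within genotypes. A log2 difference of 2 was given to 200 of 82325 sites, all from those above the median level. The test called 200 of them and 273 unchanged sites. Of 18825 gene sums it called 200 of 200 changed ones and 0 unchanged ones. The member sites had a median absolute log2 fold change of 0.232 and a median SE of 0.415. Recovery of differences smaller than 2, at weaker sites or at sites with a wider spread was not tested. The alternatives were a pseudocount of 8, a filter at the median, equal library totals, quantile normalization, no intensity trend, each library left out, starts of any transcript, a window of 25 kb and the mean over sites in place of the sum. RefSeq promoters were held for 5 of the 10 genes, not for Snai2, Zeb1, Tcf4, Foxf1 and Foxc2.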

Additional observations from a re-analysis of the deposited data

How the results depend on the processing

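No member site was called and no gene sum passed the adjusted threshold under any alternative, apart from 2 sites of Prrx1 called without WT replicate 2 (13.7 kb, 2.56, and 7.0 kb, 2.49, against 0.33 and 0.29 without WT replicate 1), so the count of called sites was 0 to 2 with 1 library left out. The lowest unadjusted p of a member site ran from 0.00736 to 0.0632. Of the gene sums 96 of 116 alternative values, and of the named sites 224 of 250, kept their direction and their side of the threshold. The cause of the changes below was not tested. Sites with both KO values above both WT values numbered 12 where only the 60 member sites at or above the median were kept, since fewer sites were counted. With 1 library left out, 23 to 35 sites lay below and 34 to 44 above, since fewer values had to separate. The shares of all sites that did so under these settings were not counted.

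Scaling turned small differences. With equal totals the log2 fold change became -0.017 for the Twist1 sum, -0.004 for Tcf4 and -0.055 for Snai2, and -0.021 at the Twist1 promoter, -0.005 at the Snai2 promoter and -0.044 at the Foxc2 site at -7.6 kb. With quantile normalization it became -0.053 for the Tcf4 sum and -0.016 for Snai1, and -0.068 at the Twist1 promoter, -0.002 at the Twist2 site at 14.7 kb, -0.022 and -0.058 at the Snai1 and Snai2 promoters and -0.091 at the Foxc2 site at -7.6 kb. With the mean over sites in place of the sum it became -0.068 for Twist1, -0.573 for Snai2, 0.023 for Foxf1 and 0.03 for Foxc2.

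With 1 library left out the gene sums ranged from -0.13 to 0.23 for Twist1, -0.10 to 0.23 for Tcf4 and -0.021 to 0.048 for Snai2. They ranged from -0.073 to 0.23 for Zeb1, -0.11 to 0.84 for Prrx1, -0.23 to 0.18 for Foxf1 and -0.24 to 0.20 for Foxc2. The sums kept their sign for Snai1 (0.103 to 0.148), Twist2 (0.056 to 0.25) and, apart from 0.00 without KO replicate 2, for Zeb2 (to 0.34). Promoter sites ranged from -0.066 to 0.16 for Twist1, -0.13 to 0.095 for Twist2, -0.11 to 0.47 for Tcf4, -0.36 to 0.30 for Zeb1 and -0.14 to 0.82 for Prrx1. Other sites ranged from -0.50 to 1.15 (Twist1, 8.9 kb), -1.45 to 0.41 (Tcf4, 177.9 kb), -0.058 to 0.33 (Tcf4, 204.0 kb), -0.72 to 0.005 (Snai2, -1.7 kb), -0.18 to 0.37 (Zeb1, 148.0 kb), -0.28 to 1.90 (Prrx1, -42.5 kb), -0.016 to 1.47 (Foxf1, 15.3 kb), -0.40 to 0.087 (Foxc2 promoter) and -0.16 to 0.21 (Foxc2, -7.6 kb).

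No paired analysis was possible because only 1 WT and 1 KO line name share a number, whose meaning the labels do not give, and a single pair cannot serve as a block. The 2 libraries per genotype limit what can be seen: the 95% interval of the gene sums reached from -0.35 to 1.08 for Prrx1.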
